A study of Mus musculus with 48 samples.

Results

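The response of liver to a 24 h fast was read in male p110α hep+/+ mice on CTRL diet by setting 6 fasted mice against 6 mice fed ad libitum, chosen by their group labels alone. These are 12 of the 48 single-colour Agilent arrays of the series, with 1 array for each mouse. The whole series crosses 2 genotypes, 2 diets and 2 nutritional states, and asks how loss of the PI3K catalytic subunit p110α from hepatocytes alters hepatic gene expression. The p110α hep+/+ mice carry the floxed p110α allele and no Cre, so they keep p110α in every cell. In p110α hep-/- mice, an albumin-Cre transgene, active in hepatocytes, deletes p110α there, and other liver cells keep it. CTRL diet or HFD, with 60% of calories from fat, was given for 12 weeks from 12 weeks of age. Fasted and fed mice were killed at the same time of day, ZT16, which falls in the dark phase when mice normally eat. The RNA came from whole frozen liver, and in such bulk samples fewer cells of a type and less RNA per cell cannot be told apart.

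During a fast, insulin falls and glucagon and glucocorticoids rise. Hepatocytes then stop making fatty acids and cholesterol, burn fatty acids delivered by adipose tissue, turn part of them into ketone bodies and release glucose made from amino acids, lactate and glycerol. The main transcription factors known in these programmes are SREBP1c and ChREBP for lipid and sugar genes, SREBP2 for cholesterol genes, PPARα for fatty acid use, and FOXO1, CREB and the glucocorticoid receptor for glucose output.

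Fasting separated the livers into groups that did not mix on the first principal component, where fasted mice scored 18.2 to 31.9 and fed mice -33.8 to -14.5. That component held 43.3% of the variance of the 12 arrays. The fed mouse nearest to the fasted ones was fed replicate 2, which also had the lowest array weight of the 12 (0.59, against a highest weight of 1.53) and a score of 35.4 on the second component. The arrays were washed in 2 batches, each with 3 fasted and 3 fed mice. Levels are given below as log2 normalised signals of 1 probe for each gene, and a difference is the log2 fold change of fasted over fed mice from limma. The level of one gene cannot be set against that of another, because probes differ in brightness. A gene was called when its limma adjusted p did not exceed 0.05 and the fold change was above 1.5 in either direction. Of 20486 genes tested, 600 were called higher in fasted mice (2.93%) and 516 lower (2.52%). Each list's count below is to be read against these shares. The fold change was above 2 for 190 genes that were higher and 140 that were lower, and above 4 for 14 and 35. All 6 fasted mice lay above all 6 fed mice for 1192 genes (5.82%) and below them for 1228 genes (5.99%). Among the called genes, 372 of the 600 and 319 of the 516 had no overlap between the groups. The median log2 fold change over all genes tested was 0.

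**Figure D1:**
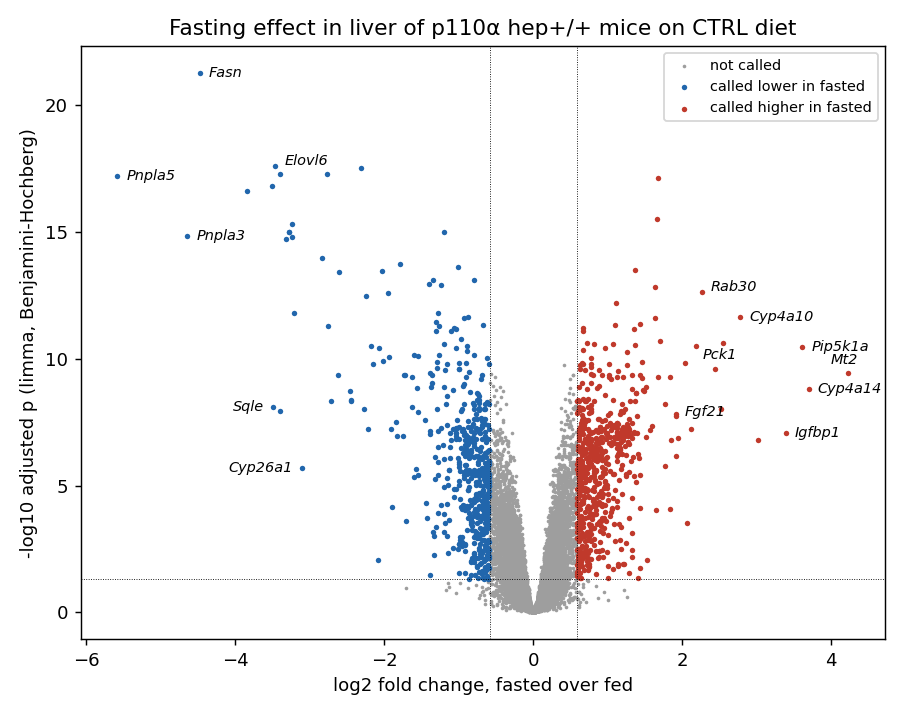
Fasting response of 20486 genes in p110α hep+/+ liver on CTRL diet, with the log2 fold change of fasted over fed mice on the x axis and minus log10 of the limma adjusted p on the y axis. Each point is a gene coloured points are the 600 called higher and the 516 called lower, and dotted lines mark the thresholds. Fold changes over 4 were seen for 35 genes that were lower and 14 that were higher, with *Fasn* at -4.47 and *Mt2* at 4.23.

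Lipogenic genes fell almost as a block. Of 20 genes for fatty acid synthesis and its control, 18 were called lower and 0 higher, with a median log2 fold change of -2.01 beside 0 over all genes, and 17 had no overlap between fasted and fed mice. *Fasn*, fatty acid synthase, had levels of 16.53, 17.37 and 17.7 (lowest, median and highest) in fed mice and 12.69, 12.82 and 13.12 in fasted mice. Every fasted mouse was far below every fed mouse, a 22.2-fold difference (log2 fold change -4.47, SE 0.19, limma adjusted p = 5.31e-22). Its probe lies on chromosome 11 of mm9, at chr11:120668460-120668519. *Pnpla3*, a lipid droplet hydrolase gene controlled by SREBP1c, fell from a median of 10.18 (8.12 to 10.87) to 5.3 (5.1 to 5.72), a log2 fold change of -4.64 (SE 0.31, limma adjusted p = 1.49e-15). Its probe was well above background in only 1 of the 6 fasted mice, so the fasted level is close to what the array can measure. The size of the fall is therefore uncertain, and the alternatives gave -6.71 to -3.6, all of them called.

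The other steps of the pathway moved the same way. *Acly*, which makes cytosolic acetyl-CoA from citrate, ran from 14.32 to 15.59 in fed mice (median 15.28) and from 12.24 to 12.84 in fasted mice (median 12.49). *Elovl6*, the elongase of palmitate, ran from 13.29 to 14.54 (median 14.15) in fed and from 10.21 to 11.04 (median 10.68) in fasted mice. Neither gene overlapped between the groups, with log2 fold changes of -2.76 (SE 0.16, limma adjusted p = 5.28e-18) and -3.46 (SE 0.19, limma adjusted p = 2.42e-18). *Acaca*, acetyl-CoA carboxylase 1, fell by 2.31 on the log2 scale, and all 6 of its probes fell (-2.31 to -1.03). *Acacb*, the mitochondrial carboxylase whose product malonyl-CoA inhibits fatty acid entry, had -2.27 at its brightest probe but only -0.04 when the median of its 3 probes was taken, and was then not called. *Me1*, malic enzyme, which supplies NADPH, fell by 1.84, and *Scd1*, the desaturase that makes oleate, fell by 0.98 with no overlap (SE 0.24, limma adjusted p = 0.00138).

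Regulators of lipogenesis fell as well. *Srebf1*, which encodes SREBP1, had levels of 15.52 to 16.52 in fed mice (median 16.29) and 12.86 to 14.04 in fasted mice (median 13.4). This is a 7.13-fold difference (log2 fold change -2.83, SE 0.2, limma adjusted p = 1.1e-14) with no overlap. *Mid1ip1* and *Thrsp*, whose paired products regulate acetyl-CoA carboxylase, had log2 fold changes of -3.84 and -2.71 (limma adjusted p = 2.34e-17 and 4.73e-09). *Mlxipl*, which encodes ChREBP, was not called: its log2 fold change was -0.55 (SE 0.1, limma adjusted p = 1.66e-05) and the groups overlapped. Its other probes had -0.64 and 0.14, and it was called with the median over probes (-0.64), within washing batch 2 (-0.59) and without fed replicate 5 or fasted replicate 6 (-0.63 each). The fitted value furthest from 0 was that of *Pnpla5*, a relative of *Pnpla3*, with fed levels of 9.91 to 11.67 (median 11.25) and fasted levels of 4.89 to 5.92 (median 5.62), a log2 fold change of -5.58 (SE 0.32, limma adjusted p = 6.36e-18). Only 2 of the 6 fasted mice had it well above background, so its size is uncertain: the second probe had -2.83, and the alternatives gave -8 to -2.88, all of them called. The second probe of *Pnpla3* had -2.54.

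Cholesterol synthesis genes were the second block of falls. Of 25 tested, 18 were called lower and 0 higher, the median log2 fold change was -1.2, and 17 had no overlap. *Sqle*, squalene epoxidase, had levels of 9.52, 10.47 and 11.25 in fed mice (lowest, median, highest) and 6.17, 6.88 and 7.83 in fasted mice, a log2 fold change of -3.49 (SE 0.41, limma adjusted p = 8.06e-09). *Fdps*, farnesyl diphosphate synthase, went from a fed range of 13.82 to 14.9 (median 14.51) to a fasted range of 10.71 to 11.65 (median 11.27), a log2 fold change of -3.32 (SE 0.23, limma adjusted p = 1.91e-15). Both separated the groups fully. *Mvd*, a decarboxylase of the mevalonate pathway, fell by 1.91, and *Insig1*, which holds SREBPs in the endoplasmic reticulum, fell by 1.6. *Srebf2*, which encodes SREBP2 itself, differed by -0.16 on the log2 scale (limma adjusted p = 0.16) with overlapping groups.

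**Figure D2:**
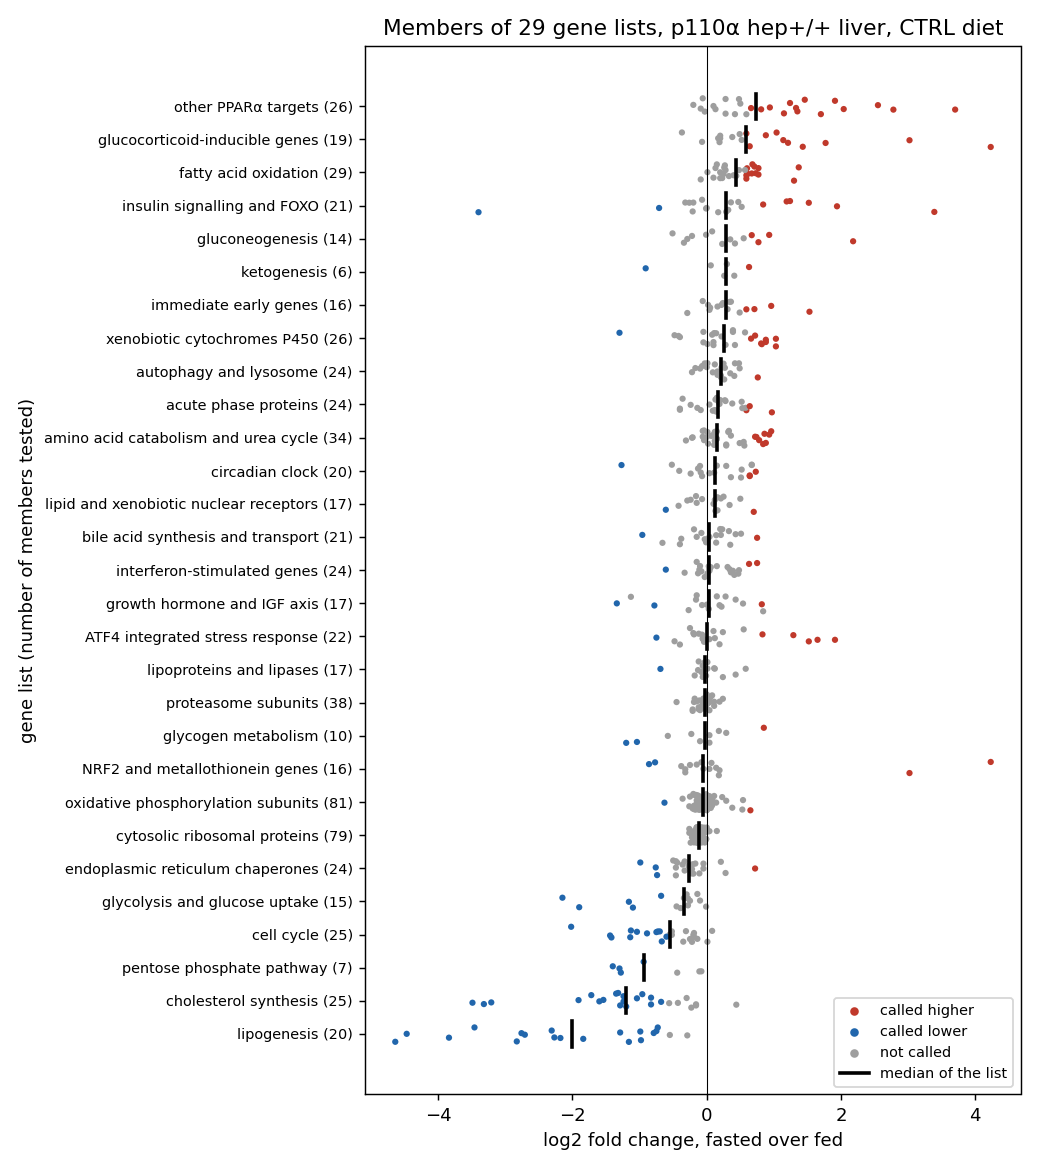
Fasting response by gene list in p110α hep+/+ liver on CTRL diet, 1 point for each gene with the log2 fold change of fasted over fed mice on the x axis, coloured by its call, with a bar at each list's median. Lipogenesis (median -2.01) and cholesterol synthesis (-1.2) lie furthest below 0, and PPARα targets (0.73) and glucocorticoid-inducible genes (0.59) furthest above.

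Changes in fatty acid oxidation were upward and smaller. Of 29 enzymes and transporters of mitochondrial and peroxisomal oxidation, 12 were called higher and 0 lower (median 0.44), 28 had a value above 0, and 19 had groups that did not overlap. *Crot*, which makes carnitine esters in peroxisomes, had levels of 12.71 to 13.12 in fed mice (median 13.08) and 13.95 to 14.69 in fasted mice (median 14.35), a log2 fold change of 1.37 (SE 0.16, limma adjusted p = 4.45e-09). *Ehhadh*, the peroxisomal bifunctional enzyme, went from 12.11 to 12.61 (median 12.3) to 12.88 to 14.24 (median 13.58), a log2 fold change of 1.3 (SE 0.17, limma adjusted p = 1.04e-07). Neither overlapped. Of the mitochondrial genes, *Acadm* (medium-chain dehydrogenase) rose by 0.73, *Etfdh* (electron transfer from these dehydrogenases) by 0.77 and *Acsl1* (fatty acid activation) by 0.77. Other mitochondrial members differed less, such as *Hadha* at 0.48 and *Echs1* at 0.01 (limma adjusted p = 8.87e-06 and 0.883), and these were not called. *Cpt1a*, the carnitine transferase that limits fatty acid entry into mitochondria, was at the fold-change threshold (log2 fold change 0.59, SE 0.09, limma adjusted p = 2.16e-06). Fasted mice had 15.2 to 15.39 and fed mice 14.3 to 14.97, and the call was lost without fed replicate 2 (0.55), fed replicate 6 (0.5) or fasted replicate 5 (0.57), since the fold change fell below 1.5. The same held when slides, or replicate numbers, were blocked (0.58 each).

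Of 6 ketogenesis genes, 1 was called higher and 1 lower (median 0.28). *Acat1*, the mitochondrial thiolase, was called at 0.63 (limma adjusted p = 9.04e-07), a call lost without fasted replicate 5 (0.57). *Slc16a6*, a ketone body exporter of hepatocytes, was the member that fell, from a median of 10.68 (10.48 to 11.25) to 9.81 (9.68 to 10.16), a log2 fold change of -0.91 (SE 0.17, limma adjusted p = 6.64e-05).

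Of 26 other targets of PPARα, 14 were called higher and 0 lower (median 0.73). *Cyp4a14*, a fatty acid omega-hydroxylase, had levels of 5.3, 7.52 and 8.6 in fed mice (lowest, median, highest) and 10.02, 11.03 and 11.45 in fasted mice, a 13-fold rise (log2 fold change 3.7, SE 0.4, limma adjusted p = 1.52e-09). *Cyp4a10* rose by 2.78, and *Acot1*, a cytosolic acyl-CoA thioesterase, by 2.04 (limma adjusted p = 2.29e-12 and 1.53e-10). The Cyp4a, Acot, Cyp3a, Cyp2b, Saa, Gstm and metallothionein genes named here have near-identical copies, and how far a probe reads its copies was not tested. *Ppara* itself was called at 0.66 (SE 0.07, limma adjusted p = 8.88e-10), with fasted mice at 14.68 to 15.09 and fed mice at 14.1 to 14.47.

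Secreted products of this group rose too. *Fgf21*, a hormone of the fasted liver, had levels of 7.48 to 8.51 in fed mice (median 7.83) and 9 to 10.52 in fasted mice (median 9.81), a log2 fold change of 1.91 (SE 0.23, limma adjusted p = 1.58e-08). *Angptl4*, an inhibitor of lipoprotein lipase, ran from 13.81 to 15.31 (median 14.45) and from 15.94 to 16.17 (median 16.11), a log2 fold change of 1.7 (SE 0.16, limma adjusted p = 1.97e-11). Neither overlapped, and the fasted mice were closer together than the fed ones for *Angptl4*. *Pdk4*, the kinase that shuts pyruvate dehydrogenase, was more variable: 7.77 to 9.57 in fed and 8.87 to 10.53 in fasted mice, with overlap (log2 fold change 1.33, SE 0.38, limma adjusted p = 0.00659). *Vnn1* (pantetheinase) and *Retsat* (retinol saturase) rose by 1.35 and 1.46. *Plin2*, the coat protein of hepatic lipid droplets, had 0.5 (limma adjusted p = 0.03), below the fold-change threshold. Its second probe had 0.6 (limma adjusted p = 0.00801), and it was called with the processed signal (0.62), with median scaling (0.63) and without fed replicate 3 (0.61).

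**Figure D3:**
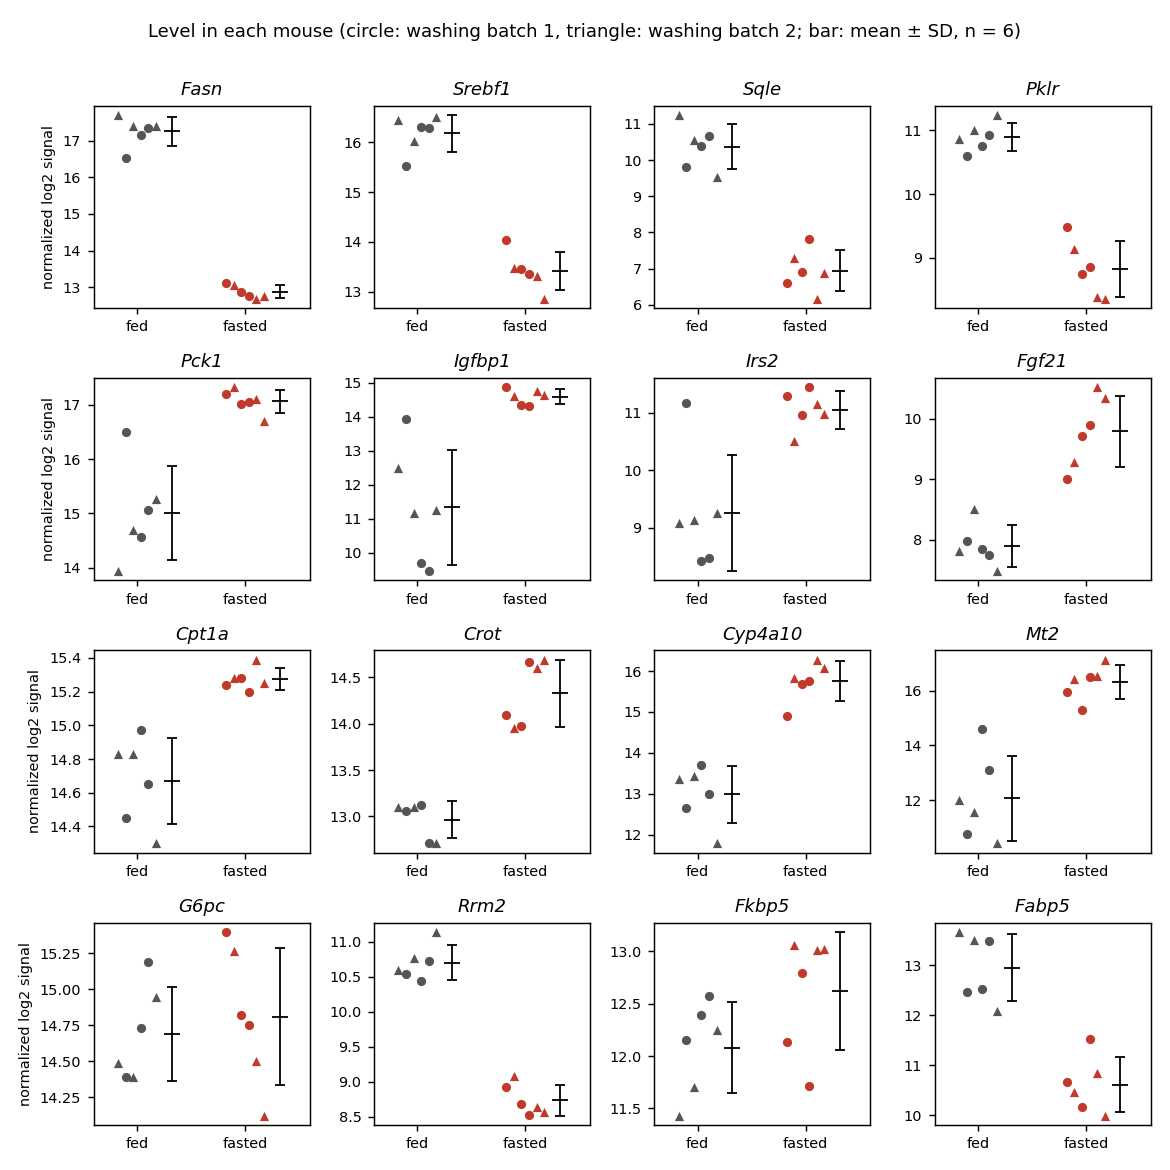
Normalised log2 signal in each of the 6 fed and 6 fasted p110α hep+/+ mice on CTRL diet for selected genes, 1 point for each mouse (circles for washing batch 1, triangles for batch 2) with a bar at the group mean ± SD (n = 6). *Fasn* does not overlap between groups (16.53 to 17.7 fed, 12.69 to 13.12 fasted), and *G6pc* overlaps fully (14.39 to 15.19 fed, 14.12 to 15.4 fasted).

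Gluconeogenesis genes did not move together. Of 14, 4 were called higher and 0 lower, with a median of 0.29. *Pck1*, cytosolic PEP carboxykinase, was at 13.94, 14.7, 14.56, 15.07 and 15.27 in fed replicates 1, 3, 4, 5 and 6 and at 16.49 in fed replicate 2, against 16.7 to 17.32 in fasted mice (median 17.08). The fed mouse with the high value was still below every fasted mouse, and the log2 fold change was 2.18 (SE 0.2, limma adjusted p = 3.05e-11). *Ppargc1a*, the coactivator PGC1α, rose by 0.93 and the transcription factor gene *Klf15* by 0.67 (limma adjusted p = 1.82e-06 and 0.000288), both without overlap. *G6pc*, glucose-6-phosphatase, which performs the last step of glucose release, had levels of 14.39 to 15.19 (median 14.61) in fed and 14.12 to 15.4 (median 14.79) in fasted mice, a log2 fold change of 0.08 (SE 0.21, limma adjusted p = 0.802). *Fbp1*, fructose-1,6-bisphosphatase, was lower in all fasted mice (17.3 to 17.39 against 17.51 to 17.71), but by only -0.29 (limma adjusted p = 2.51e-05). *Pcx*, pyruvate carboxylase, had 0.23 (limma adjusted p = 0.0202) and was not called.

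Some genes of sugar use fell. Of 15 genes of glycolysis and glucose uptake, 5 were called lower and 0 higher (median -0.34, all 15 below 0), and of 7 genes of the pentose phosphate pathway, a source of NADPH, 4 were called lower and 0 higher (median -0.94). *Pklr*, liver pyruvate kinase and a ChREBP target, went from 10.59 to 11.24 (median 10.9) to 8.36 to 9.48 (median 8.8), a log2 fold change of -2.15 (SE 0.21, limma adjusted p = 1.66e-10). The groups did not overlap. *Khk*, which phosphorylates fructose, fell by 1.16 on the log2 scale. In the pentose phosphate pathway, *Pgd* fell by 1.4, *Tkt* by 1.28 and *G6pdx* by 0.94 (limma adjusted p = 1.08e-13, 1.52e-12 and 1.2e-09). The other probe of *Tkt* had -0.06 (limma adjusted p = 0.652). *Slc2a4*, the insulin-responsive glucose transporter known mainly from muscle and fat, was among the 10 largest falls, from 9.2 to 10.39 (median 9.72) to 6.17 to 6.57 (median 6.3), a log2 fold change of -3.5 (SE 0.2, limma adjusted p = 1.54e-17).

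Of 10 glycogen genes, 2 were called lower and 1 higher. *Pygl*, liver glycogen phosphorylase, which breaks glycogen down, was one of the members that fell: 15.22 to 15.56 in fed and 14.12 to 14.46 in fasted mice, with no overlap (log2 fold change -1.2, SE 0.08, limma adjusted p = 1.04e-15). *Gbe1*, the branching enzyme used in synthesis, fell by 1.04 (limma adjusted p = 3.65e-11). *Gys2*, liver glycogen synthase, had -0.1 (limma adjusted p = 0.517). *Ppp1r3g*, a phosphatase subunit that targets glycogen, was called at 0.85 (SE 0.31, limma adjusted p = 0.0306) with overlapping groups. That call was lost without fed replicate 5 (0.82) or 6 (0.5) and without fasted replicate 1 (0.75), 2 (0.79) or 3 (0.72), with the slide as a block (0.76) and with only these 12 arrays in the fit (0.77).

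Among 21 genes of insulin signalling and FOXO targets, 6 were called higher and 2 lower (median 0.29). *Igfbp1*, an IGF binding protein gene repressed by insulin through FOXO1, was at 12.48, 13.93, 11.15, 9.68, 9.46 and 11.26 in fed replicates 1 to 6 and at 14.86, 14.61, 14.35, 14.3, 14.76 and 14.62 in fasted replicates 1 to 6. The fed mice spread widely while the fasted mice lay close together, and fed replicate 2 came nearest to them. The difference was 10.5-fold (log2 fold change 3.39, SE 0.44, limma adjusted p = 8.27e-08), at a probe on chr11:7102442-7102501 of mm9. *Irs2*, an insulin receptor substrate, ran from 8.42 to 11.17 in fed mice (median 9.11) and from 10.5 to 11.44 in fasted mice (median 11.06), a log2 fold change of 1.94 (SE 0.26, limma adjusted p = 1.28e-07). Only fed replicate 2 reached into the fasted range for this gene.

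*Foxo1* rose by 0.84, *Igfbp2* by 1.24, *Txnip*, an inhibitor of glucose uptake, by 1.19, and *Trib3*, a pseudokinase that binds AKT, by 1.52. All 4 separated the groups. The 2 members that fell were *Pik3r1*, the p85α regulatory subunit of PI3K, at -0.71 (limma adjusted p = 9.19e-06), and *Gm6484*, which RefSeq names *Angptl8*, an insulin-induced hepatokine gene. The latter went from 13.92 to 16.4 (median 15.45) to 11.38 to 12.58 (median 12.26), a log2 fold change of -3.4 (SE 0.41, limma adjusted p = 1.11e-08). *Insr*, the insulin receptor, had -0.01 (limma adjusted p = 0.964). *Pik3ca*, which encodes p110α, had 0.47 (limma adjusted p = 6.49e-06) and was not called, with 12.79 to 13.09 in fed and 13.09 to 13.44 in fasted mice. Its probe, at chr3:32364747-32364806 of mm9, gave 13.02 to 13.33 in fed p110α hep-/- mice, not lower than in p110α hep+/+ mice, so it does not check the genotype labels, which were taken as given.

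Of 17 growth hormone and IGF axis genes, 1 was called higher and 2 lower (median 0.03), beside 2.93% and 2.52% of all genes. *Igf1* had 0.22 (limma adjusted p = 0.0291), *Ghr*, the growth hormone receptor, had -0.07 (limma adjusted p = 0.492), and *Socs2*, a target of STAT5, had 0.84 with overlapping groups (SE 0.38, limma adjusted p = 0.0916). That gene stands at the threshold, since its 2 other probes had 0.95 and 0.6 (limma adjusted p = 0.0295 and 0.00949). It was called with the median over probes (0.96), with the slide as a block (0.92), within washing batch 2 (1.53) and without fed replicate 2 (1.04) or fasted replicate 4 (1.05). *Serpina12*, the adipokine vaspin, was called lower at -1.34 (limma adjusted p = 0.000659). Only 4 of 6 fasted mice had it well above background, and the groups overlapped.

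The glucocorticoid-inducible list had 10 of 19 genes called higher and 0 lower (median 0.59). The metallothionein genes *Mt1* and *Mt2*, which bind zinc and also answer to metals and stress, gave its largest rises. *Mt2* had levels of 10.42, 11.78 and 14.58 in fed mice (lowest, median, highest) and 15.29, 16.46 and 17.13 in fasted mice, an 18.7-fold difference (log2 fold change 4.23, SE 0.44, limma adjusted p = 3.67e-10). *Mt1* rose by 3.02 (limma adjusted p = 1.63e-07). Both stayed called within each washing batch, but the size differed, at 2.72 and 5.36 for *Mt2* and 1.91 and 3.82 for *Mt1* in batches 1 and 2. *Klf9* rose by 1.04 and *Gadd45b*, a stress gene, by 1.77 (limma adjusted p = 4.12e-08 and 1.75e-06). *Zbtb16*, *Cdkn1a*, *Per1* and *Fkbp5* were called at 1.14, 1.21, 0.64 and 0.59, with calls that rested on single mice at the probe used. The second probes of *Zbtb16* and *Cdkn1a* had 0.9 and 0.71 (limma adjusted p = 0.00199 and 0.00398). The other probes of *Fkbp5* had 1.08 and 0.45 (limma adjusted p = 0.00659 and 0.00617). Within washing batch 1, *Zbtb16* had 0.72, *Cdkn1a* 0.44, *Per1* 0.28 and *Gadd45b* 0.99, and none was called. *Zbtb16* was also lost without fed replicate 3 (0.91). *Cdkn1a*, the p21 gene, was lost without fed replicate 3 (0.98) or fasted replicate 6 (0.96), and the clock gene *Per1* without the same mice (0.44 and 0.58). *Fkbp5*, a chaperone of the receptor, was lost without fed replicate 1 (0.46) or 3 (0.48) and without fasted replicate 2 (0.53), 3 (0.53), 5 (0.5) or 6 (0.5), without array weights (0.54) and with only these 12 arrays in the fit (0.63), and its difference was -0.16 among mice of washing batch 1 and 1.23 among those of batch 2.

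Of 20 clock genes, 3 were called higher and 1 lower (median 0.13), beside 2.93% and 2.52% of all genes. *Nr1d2*, a REV-ERB repressor, rose by 0.73 without overlap (limma adjusted p = 1.93e-06), and *Bhlhe40*, another repressor, fell by 1.27 (limma adjusted p = 1.15e-06). *Nfil3* was called at 0.64 (limma adjusted p = 0.0102), a call lost without fed replicate 4 (0.52) or 5 (0.53) or fasted replicate 6 (0.57), and at 0.58 with no filter on dim probes, without the washing batch correction or without array weights. *Arntl*, the BMAL1 gene, had -0.09 (limma adjusted p = 0.812), and *Per2* had -0.52 (limma adjusted p = 3.93e-05), below the fold-change threshold, and was called within washing batch 2 (-0.64). The second probe of *Per2* had only -0.04 (limma adjusted p = 0.852). A single time of day was sampled, so a shift of phase and a change of level cannot be told apart.

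Amino acid catabolism and the urea cycle had 8 of 34 genes called higher and 0 lower (median 0.15). *Tat*, tyrosine aminotransferase, ran from 14.48 to 15.13 in fed mice (median 14.84) and from 15.35 to 16.08 in fasted mice (median 15.65), a log2 fold change of 0.88 (SE 0.24, limma adjusted p = 0.00368). The amino acid transporters *Slc38a2* and *Slc7a2* rose by 0.96 and 0.93, and *Cth*, which makes cysteine, by 0.86. The second probe of *Slc38a2* had 0.17 (limma adjusted p = 0.141), and with the median over probes (0.57) the gene was not called. *Got1*, an aspartate aminotransferase, was called at 0.72 (limma adjusted p = 0.0139) but differed by 0.19 among mice of washing batch 1 and by 1.17 among those of batch 2. In a separate fit of batch 1 alone it had 0.18 (limma adjusted p = 0.722) and was not called. *Cps1*, the first enzyme of the urea cycle, had 0.07 (limma adjusted p = 0.722).

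Stress programmes were mixed. Of 22 ATF4 targets, 5 were called higher and 1 lower (median 0), and *Atf4* itself had -0.4 (limma adjusted p = 0.000432), below the fold-change threshold. *Gdf15*, a stress hormone gene, ran from 8.78 to 10.37 in fed mice (median 9.97) and from 11.19 to 11.96 in fasted mice (median 11.37), a log2 fold change of 1.65 (SE 0.32, limma adjusted p = 9.59e-05). *Cebpb* rose by 0.83. *Chac1*, which degrades glutathione, was called at 1.29 (limma adjusted p = 0.0279), a call lost without fed replicate 3 (1.13), 4 (1.13) or 5 (0.99) or fasted replicate 5 (1.2) or 6 (1.18), with no filter on dim probes (1.21) and without array weights (1.16). Of 24 endoplasmic reticulum chaperones, 3 were called lower and 1 higher (median -0.26). *Pdia6*, a disulphide isomerase, fell by 0.76 and *Herpud1*, a degradation factor, rose by 0.72. *Hspa5*, the chaperone BiP, had -0.44 with overlapping groups (limma adjusted p = 0.125).

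Of 24 autophagy and lysosome genes, 1 was called higher, *Gabarapl1*, at 0.76 (limma adjusted p = 3.32e-07), which is near the 2.93% of all genes. By the adjusted p alone, 14 of the 24 were higher and 2 lower, beside 3269 and 3389 of all 20486 genes. *Map1lc3b*, the LC3B gene, had 0.42 with no overlap between groups (limma adjusted p = 6.66e-07), below the fold-change threshold. The other probes of *Map1lc3b* had 0.44 and 1.15 (limma adjusted p = 4.71e-09 and 4.94e-08), so the call depends on the probe. Differences in housekeeping complexes were small. No gene of 79 cytosolic ribosomal proteins or 38 proteasome subunits was called by limma. By the adjusted p alone, 36 ribosomal protein genes were lower and 1 higher, and 5 and 2 proteasome subunits were. Over all 20486 genes, 3389 were lower and 3269 higher by that rule. In oxidative phosphorylation, 1 of 81 subunits was called higher and 1 lower, and by the adjusted p alone 25 were lower and 6 higher. The list medians were -0.11, -0.03 and -0.06, beside 0 over all genes. They were 0.03, 0.05 and 0.06 when each array was scaled by a percentile of its processed signal in place of quantile normalisation. The median over all genes was then 0.04, so these lists have no settled direction.

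Of 25 cell cycle genes, 12 were called lower and 0 higher (median -0.55), and 4 had no overlap between fasted and fed mice, in a liver where few hepatocytes divide. *Rrm2*, a ribonucleotide reductase subunit needed for DNA synthesis, had levels of 10.44 to 11.14 in fed mice (median 10.66) and 8.52 to 9.08 in fasted mice (median 8.66), a log2 fold change of -2.02 (SE 0.2, limma adjusted p = 1.22e-10). The helicase subunits *Mcm6* and *Mcm5* fell by 1.44 and 1.42, each with 1 fasted mouse or more inside the fed range. Within washing batch 1 they had -0.81 and -0.71 (limma adjusted p = 0.254 and 0.364), and neither was called. *Ccnd1*, cyclin D1, fell by 1.13 (limma adjusted p = 0.000229), and *Mki67* had -0.55 (limma adjusted p = 0.00489), just short of the fold-change threshold. It passed with the processed signal (-0.85), with the slide as a block (-0.59), within washing batch 2 (-0.78) and without fed replicate 5 (-0.59) or 6 (-0.59) or fasted replicate 1 (-0.6) or 4 (-0.61). Markers of immune cells were mixed. All 8 Kupffer cell markers had differences below 0 (-0.64 to -0.24), none was called or passed the adjusted p alone, and their summed signal on the log2 scale was 14.66 to 16.12 in fed and 14.42 to 15.05 in fasted mice. Of 7 markers of recruited macrophages, 2 were called lower. All 3 B cell markers that were measured had values below 0 (-0.77 to -0.36), and none passed the adjusted p. Markers of T and NK cells (median -0.02, 3 of 6 below 0) and of neutrophils (median -0.01, 3 of 5 below 0) had no common direction, and none was called. The part of these cells in the fall of the cell cycle genes was not tested.

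Of 24 acute phase genes, 3 were called higher and 0 lower (median 0.16). *Lbp*, the lipopolysaccharide binding protein, rose by 0.97 (limma adjusted p = 2.75e-09), while *Saa1*, serum amyloid A, had 0.15 and spread widely in fasted mice (13.32 to 16.53). Of 26 cytochromes P450 of families 1 to 3 and their partners, 8 were called higher and 1 lower (median 0.25). *Por*, the reductase that feeds them electrons, rose by 1.03, *Cyp3a25* by 1.03 and *Cyp3a11* by 0.88 (limma adjusted p = 1.35e-08, 1.23e-07 and 0.00632), and *Cyp2c70*, which hydroxylates bile acids in mice, fell by 1.3. *Cyp2b10*, a target of CAR, had -0.48 with fed mice at 8.96 to 13.5 and fasted mice at 8.9 to 12.37 (limma adjusted p = 0.53). *Nr1i2*, the PXR gene, was called at 0.7, and *Nr1i3*, the CAR gene, had 0.5 and no overlap but was not called (limma adjusted p = 2.73e-10 and 0.000288), although the second probe of *Nr1i3* passed at 0.61. In bile acid synthesis and transport, 1 of 21 genes was called higher and 1 lower (median 0.04), which is near the 2.93% and 2.52% of all genes. The higher one was *Nr0b2*, the SHP repressor, at 0.75 (limma adjusted p = 0.0155), a call lost without fasted replicate 1 (0.61) and within washing batch 2 (0.18). *Cyp7a1*, which limits bile acid synthesis, had -0.66 with overlapping groups (limma adjusted p = 0.209).

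Of 16 immediate early genes, 4 were called higher and 0 lower (median 0.28), beside 2.93% and 2.52% of all genes, among them *Egr1* at 1.53 with overlap (limma adjusted p = 0.00891) and *Junb* at 0.96 without (limma adjusted p = 2.2e-06). Of 24 interferon-stimulated genes, 2 were called higher and 1 lower (median 0.04), with *Usp18*, which removes ISG15, at 0.75 (limma adjusted p = 0.00103). Of 16 NRF2 targets and metallothioneins, the 2 called higher were *Mt1* and *Mt2*, and 2 were called lower, among them the glutathione transferase *Gstm1* at -0.86 (limma adjusted p = 2.72e-06). Of 17 lipoprotein and lipase genes, 1 was called lower, and of 17 nuclear receptors, 1 was called higher and 1 lower. In all, 160 of 704 distinct genes on the 29 lists were called, beside 1116 of all 20486 genes tested. The lists were chosen with earlier results of these data known, so this share is not a test.

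Outside these lists, *Pip5k1a*, a phosphoinositide kinase, gave one of the largest rises at its brightest probe, from 8.89 to 11.7 in fed mice (median 9.56) to 12.71 to 14.43 in fasted mice (median 13.6), a log2 fold change of 3.61 (SE 0.34, limma adjusted p = 3.47e-11). Its 2 other probes had 0.01 and -0.33, so the rise was seen at 1 probe of 3. *Rab30*, a small GTPase of the Golgi, was tight within groups, at 7.76 to 8.54 (median 8.06) and 9.95 to 10.65 (median 10.28), a log2 fold change of 2.26 (SE 0.18, limma adjusted p = 2.31e-13). *Krt23*, a keratin, rose by 2.12, *Lamb3*, a laminin chain, by 1.91, *Clec2h*, a lectin, by 1.83 and *Gpcpd1*, which cleaves glycerophosphocholine, by 1.77. *Cyp26a1*, which degrades retinoic acid, fell by 3.1 on the log2 scale (SE 0.48, limma adjusted p = 2.09e-06), with fed mice spread from 8.38 to 11.44 and fasted mice from 5.64 to 7.57.

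Promoters of 5 called genes are shown because each holds a motif of a factor known in fasting or feeding. They are the 250 bases before the start site from RefSeq on GRCm38.p6, with the motif in capitals. *Gdf15* (chr8:70632457-70632706, minus strand) holds a direct repeat of AGGNCA with 1 base between its copies, an element that PPARα can bind. *Elovl6* (chr3:129532136-129532385, plus strand) holds the forkhead motif TGTTTAC, read on the opposite strand. *Ehhadh* (chr16:21787835-21788084, minus strand) holds the sterol response element TCACNCCAC, also on the opposite strand. *Angptl8*, *Gm6484* on the array (chr9:21835260-21835509, plus strand), holds the C/EBP-ATF motif TGATGNAAT. *Irs2* (chr8:11008930-11009179, minus strand) holds the E-box CACGTG, the same on both strands.
Gdf15: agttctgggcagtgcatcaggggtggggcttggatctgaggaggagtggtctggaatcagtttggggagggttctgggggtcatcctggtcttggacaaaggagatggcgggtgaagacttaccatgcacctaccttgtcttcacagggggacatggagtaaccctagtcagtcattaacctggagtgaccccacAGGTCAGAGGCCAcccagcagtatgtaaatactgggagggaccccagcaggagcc
Elovl6: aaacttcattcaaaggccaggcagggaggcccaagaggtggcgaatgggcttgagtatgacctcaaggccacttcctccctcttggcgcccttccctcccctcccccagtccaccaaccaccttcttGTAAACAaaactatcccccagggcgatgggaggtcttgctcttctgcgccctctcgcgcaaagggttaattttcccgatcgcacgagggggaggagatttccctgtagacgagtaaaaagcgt
Ehhadh: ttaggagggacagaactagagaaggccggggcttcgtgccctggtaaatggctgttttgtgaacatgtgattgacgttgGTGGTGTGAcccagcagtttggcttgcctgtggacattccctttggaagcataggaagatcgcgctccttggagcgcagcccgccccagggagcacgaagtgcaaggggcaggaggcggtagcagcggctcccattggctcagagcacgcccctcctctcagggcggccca
Angptl8: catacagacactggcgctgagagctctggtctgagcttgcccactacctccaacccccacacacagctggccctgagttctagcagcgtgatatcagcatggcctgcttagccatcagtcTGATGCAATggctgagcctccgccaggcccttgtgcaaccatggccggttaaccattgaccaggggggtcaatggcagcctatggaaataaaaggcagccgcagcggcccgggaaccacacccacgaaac
Irs2: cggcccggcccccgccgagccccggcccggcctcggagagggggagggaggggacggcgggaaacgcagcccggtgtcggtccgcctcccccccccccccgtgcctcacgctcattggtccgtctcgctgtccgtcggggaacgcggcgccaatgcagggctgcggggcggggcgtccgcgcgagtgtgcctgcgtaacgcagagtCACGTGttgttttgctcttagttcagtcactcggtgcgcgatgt

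Both strands were searched. These motifs were found in 0.302%, 2.57%, 1.04%, 0.513% and 7.75% of 15588 promoters of tested genes, in the order given. A promoter was found for only 12296 of the 20486 genes tested, 393 of the 600 called higher and 370 of the 516 called lower. In the same order, the shares were 0.598%, 3.98%, 2.19%, 1.2% and 11% of 502 promoters of genes called higher. They were 0.2%, 1.6%, 2.2%, 0.6% and 7% of 500 promoters of genes called lower. Differences between these shares were not tested. Each gene shown had the largest fold change among the key genes that held its motif. The forkhead motif was also in *Txnip*, *Klf9* and *Cyp3a11*, all higher, and the sterol element in *Hmgcs1*, which was lower. *Fgf21*, which was higher, also held the C/EBP-ATF motif. The E-box was also in *Fgf21*, *Gdf15*, *Igfbp2*, *Nr0b2*, *Per1* and *Fkbp5*, all higher, and in *Insig1*, which was lower. The glucocorticoid element, AGAACA and TGTTC with 3 bases between them, was in 4 of the 15588 promoters. A match describes letters in this window and is neither a bound site nor a cause.

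The fasting response was next set beside that seen without p110α on the same diet, in p110α hep-/- mice, and that of p110α hep+/+ mice on HFD, each with its own 12 mice. Of the 1116 genes called in p110α hep+/+ mice on CTRL diet, 97.4% had the same sign in p110α hep-/- mice and 95.8% on HFD, beside 73.5% and 72.4% of all genes tested. The interaction of genotype with nutritional state was called for 269 genes (1.31%) and that of diet with nutritional state for 183 (0.893%). Both interactions use the p110α hep+/+ mice on CTRL diet, so their results are not independent. The median log2 fold change of the lipogenesis list was -2.01 in p110α hep+/+ mice on CTRL diet, -1.29 in p110α hep-/- mice and -1.49 on HFD. The median of the other PPARα targets was 0.73, 1.56 and 0.03 in the same order, that of fatty acid oxidation 0.44, 0.88 and 0.07, and that of glucocorticoid-inducible genes 0.59, 0.68 and 0.6. These list medians are descriptions without a test.

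By genotype, *Fabp5*, a fatty acid binding protein gene, changed direction. It went from 12.08 to 13.67 (median 13) in fed to 9.99 to 11.52 (median 10.57) in fasted p110α hep+/+ mice, and from 9.71 to 12.08 (median 10.83) to 12.09 to 13.5 (median 12.37) in p110α hep-/- mice. The log2 fold changes were -2.45 (limma adjusted p = 4.64e-09) and 1.53 (limma adjusted p = 3.95e-05), and their difference was -3.98 (SE 0.4, limma adjusted p = 6.68e-09). *Pnpla5* and *Pnpla3* had fitted values of -5.58 with and -2.51 without p110α and of -4.64 and -1.98 (interactions -3.08 and -2.66, limma adjusted p = 8.14e-05 and 0.000363). Their fasted medians were alike and near background in both genotypes (5.62 and 5.43, 5.3 and 5.27), while the fed medians were 11.25 and 7.67, and 10.18 and 7.38. The size of each fall is therefore limited by the background, and these interactions show the difference in fed level. *Pdk4* and *Fgf21* rose less with p110α than without it, by 1.33 against 4.13 and by 1.91 against 3.43 (interactions -2.8 and -1.52, limma adjusted p = 0.00235 and 0.00559). *Pck1* rose more with p110α, by 2.18 against 0.76 (interaction 1.41, limma adjusted p = 0.00356), and its fed levels were 13.94 to 16.49 with and 15.89 to 16.77 without p110α. *Sqle* had log2 fold changes of -3.49 with and -1.45 without p110α. Its fed medians were 10.47 and 7.62, and its fasted medians 6.88 and 6.04. Whether background limits the smaller fall was not tested. The *Sqle* interaction of -2.04 (limma adjusted p = 0.039) had p above the threshold in 8 of the 12 fits that left out 1 mouse. Those were the fits without fed replicates 1, 3, 4 and 5 (-1.83, -1.99, -2.02 and -1.97) and without fasted replicates 1, 3, 5 and 6 (-2.01, -2.01, -1.85 and -1.99). The call was also lost with the processed signal (-1.68), with no filter on dim probes (-2.09), with the replicate block (-2.07) and without array weights (-2.15). *Fasn* fell by -4.47 and -3.73 (interaction -0.74, limma adjusted p = 0.118), and *Igfbp1* rose by 3.39 and 2.02 (interaction 1.37, limma adjusted p = 0.235), and neither interaction was called. Within single washing batches, with 3 mice in each group, 107 genes were called for this interaction in batch 1 and 17 in batch 2, and of the genes named in this comparison *Fabp5* was the one called in both.

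**Figure D4:**
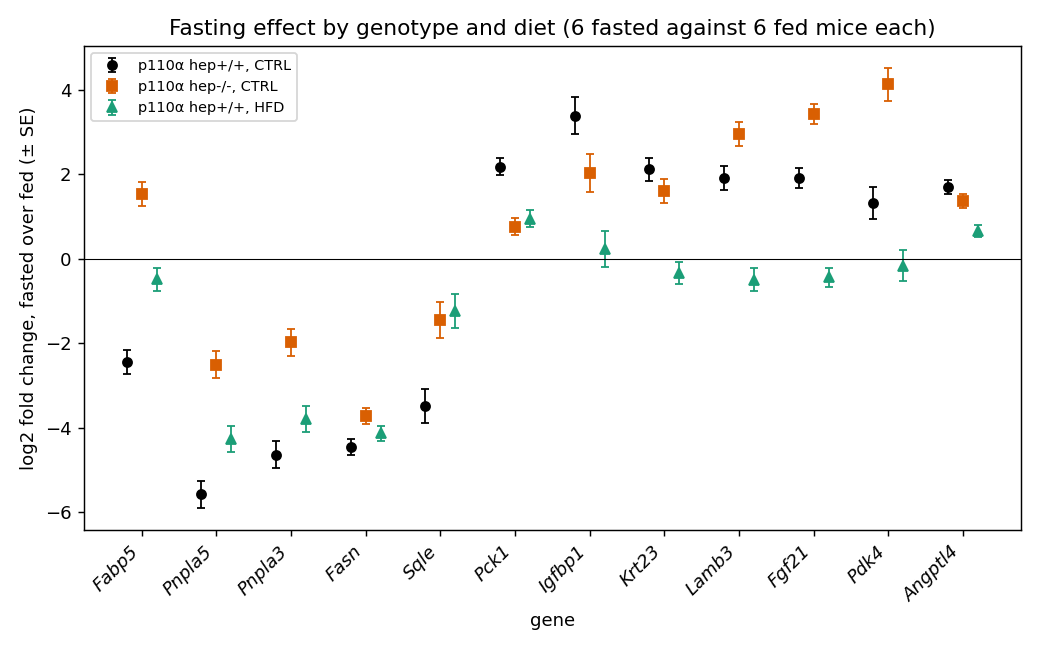
Log2 fold change of fasted over fed mice for selected genes in p110α hep+/+ mice on CTRL diet, p110α hep-/- mice on CTRL diet and p110α hep+/+ mice on HFD, with points at the limma estimate and bars of 1 standard error. *Fabp5* changes sign with genotype (-2.45 and 1.53), and *Igfbp1* loses its rise on HFD (3.39 and 0.23).

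By diet, the fasting response of several genes was smaller on HFD. *Igfbp1* had fed levels of 9.46 to 13.93 (median 11.21) on CTRL diet and 12.61 to 15.07 (median 14.2) on HFD, beside fasted levels of 14.3 to 14.86 and 13.87 to 14.98. Its log2 fold change was 3.39 on CTRL diet and 0.23 on HFD (interaction 3.16, limma adjusted p = 0.00275). *Fgf21* had 1.91 and -0.44 (interaction 2.36, limma adjusted p = 2.01e-05), with fed medians of 7.83 and 8.99. *Krt23* had 2.12 on CTRL diet and -0.34 on HFD, and *Lamb3* had 1.91 and -0.5 (interactions 2.45 and 2.41, limma adjusted p = 0.000133 and 0.000259). *Angptl4* and *Pck1* had smaller differences, 1.7 against 0.66 and 2.18 against 0.95 (interactions 1.04 and 1.23, limma adjusted p = 0.0054 and 0.0131), and neither was called without array weights (0.92 and 1.13, limma adjusted p = 0.0615 and 0.0823). *Sqle* fell by -3.49 and -1.24 (interaction -2.25, limma adjusted p = 0.0257), a call lost without fed replicate 1 (-2.04) or fasted replicate 5 (-2.06), with no filter on dim probes (-2.25) and without array weights (-2.18). *Fasn* fell by -4.47 and -4.14, and its interaction was not called (-0.33, limma adjusted p = 0.587). Within single washing batches, the diet interaction was called for 13 genes in batch 1 and 16 in batch 2, and of the genes named here *Krt23*, *Lamb3* and *Fgf21* were called in batch 2 and none in batch 1.

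The 12 arrays had 52.3% to 57% of spots well above background and no saturated spot, and arrays correlated at 0.994 to 0.997 within the fasted group and 0.991 to 0.996 within the fed group. Of 8 hepatocyte markers, 7 passed the filter, all 7 were above background on all 12 arrays and none was called, with a summed log2 signal of 20.13 to 20.24 in fed and 20.18 to 20.22 in fasted mice. Markers of adipocytes varied most, at 9.32 to 13.4 in fed and 9.99 to 12.37 in fasted mice, with 0 of 4 called. Of 10 stellate cell markers, 3 were called lower, 2 of them collagen genes, and of 3 erythroid markers, 1 was called lower. Of the 1116 called genes, 1112 had the same sign in both washing batches, and 914 had the larger difference in batch 2, where the median size was 0.93 against 0.66 in batch 1. Among named genes not yet given by batch, calls were lost within batch 1 for *Scd1* (-0.69), *Cpt1a* (0.53), *Acat1* (0.54), *Ppara* (0.58), *Klf15* (0.62), *Foxo1* (0.48) and *Serpina12* (-0.82). The same held for *Slc38a2* (0.79), *Herpud1* (0.68), *Ccnd1* (-1.05), *Por* (0.62), *Cyp2c70* (-1.03), *Nr1i2* (0.55), *Usp18* (0.34) and *Egr1* (1.02). Within batch 2, calls were lost for *Pdk4* (1.21), *Pik3r1* (-0.49), *Tat* (0.8) and *Cyp3a11* (0.75). *Ppp1r3g* (1.02 and 0.53), *Nfil3* (0.83 and 0.58) and *Chac1* (1.65 and 1.37) were called within neither batch. Fed replicate 2 was in batch 1. Without that mouse, 1223 genes were called, 1082 of them among the 1116.

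**Figure D5:**
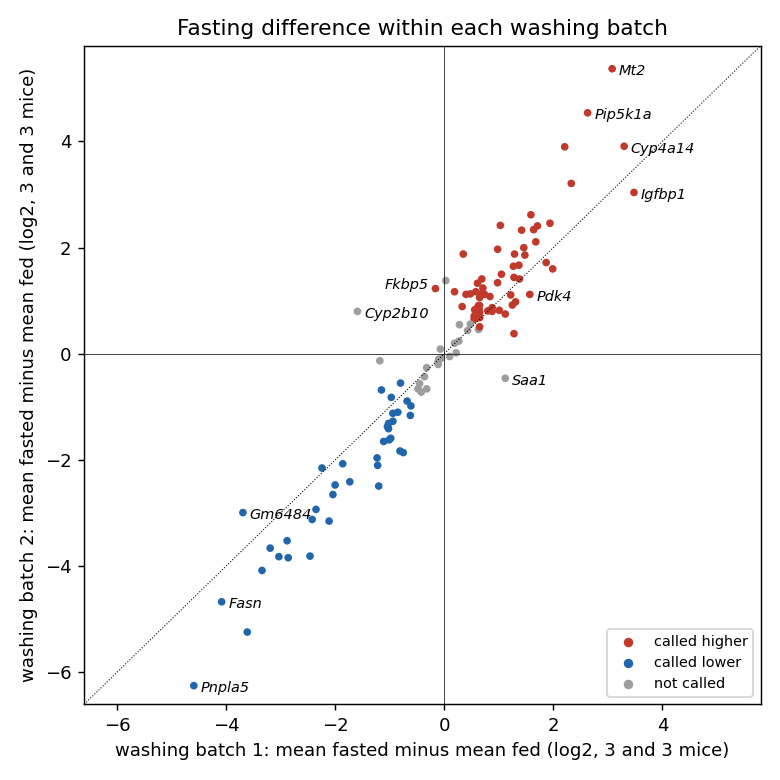
Log2 difference between fasted and fed p110α hep+/+ mice on CTRL diet within washing batch 1 (x axis) and washing batch 2 (y axis), 1 point for each named gene, 3 fasted and 3 fed mice in each batch, with the line of equality. Most called genes lie further from 0 in batch 2, and *Fkbp5* has opposite signs (-0.16 and 1.23).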

How the data were processed

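Liver RNA of 48 mice was measured on Agilent mouse arrays, and each array is 1 mouse, so n counts mice. The authors deposited the scanner output of Agilent Feature Extraction 10.10.1.1 (version from the submitters' processing notes), with the intensity of each spot before normalisation, and a table of log2 values that the authors filtered, corrected for the washing bath and quantile normalised. Groups and washing batches came from the labels. From the intensities, the log2 median signal of non-control probes was taken, outlier spots were set to missing, and spots of 1 probe were averaged. Probes well above background on at least 5 of 6 arrays of at least 1 group were kept (30793 of 56605 probes, 20486 genes). The washing batch was removed with group means protected, and arrays were quantile normalised. A single limma model (limma 3.58.1, statmod 1.5.0, R version 4.3.3) covered all 48 arrays, with array weights and a mean for each of 8 groups. The Benjamini-Hochberg procedure ran over every probe kept, and each gene was read at its brightest probe, so probes of 1 gene can differ. Fold changes use the array weights, so plain group means need not give them exactly.

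Named genes were the 10 largest rises and falls among called genes without overlap and well above background on all 12 arrays (predicted transcripts and near-identical copies left out), key members and up to 3 further called members of each list, *Pik3ca*, and the 5 called genes with the largest called interaction of each kind. The members and lists were chosen with earlier results of these data known. Probe positions (mm9) and symbols were read from the scanner output, and promoters are from RefSeq on GRCm38.p6, which was not mixed with mm9. The scripts were tested on simulated data. Alternatives were other signals, background corrections, scalings, filters, blocks, weights, thresholds and probe choices, the deposited log2 values and leaving out each mouse. The number of arrays limits the precision, and dim genes are less certain. Some genes that this rule covers are not reported here.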

Additional observations from a re-analysis of the deposited data

Results flagged for a closer look

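Single mice stood apart for 5 genes, in that the gap from the most extreme of 6 mice to its neighbour took a larger share of the group's range than Dixon's critical value. Chance alone marks about 1 in 20 groups, and 244 groups were examined. Fed replicate 2 was lowest among fed mice for *Mid1ip1* (12.71, against a group median of 14.21) and highest for *Irs2* (11.17, against 9.11). In both genes it lay on the side of the fasted mice. Fed replicate 1 was low for *Nr1d2* (8.83, against 9.48) and fed replicate 3 for *Zbtb16* (9.99, against 10.97). Fasted replicate 1 was low for *Ppara* (14.68, against 14.98).

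The fasting effect differed between genotypes on CTRL diet, by the limma interaction, for *Fabp5* (-3.98), *Pnpla5* (-3.08), *Pdk4* (-2.8), *Pnpla3* (-2.66), *Sqle* (-2.04), *Fgf21* (-1.52) and *Pck1* (1.41). It differed between diets in p110α hep+/+ mice for *Igfbp1* (3.16), *Krt23* (2.45), *Lamb3* (2.41), *Fgf21* (2.36), *Sqle* (-2.25), *Pck1* (1.23) and *Angptl4* (1.04). For *Pnpla5* and *Pnpla3*, fasted levels were near background, which limits the size of their falls. A negative value means a lower fasted-over-fed ratio in p110α hep+/+ mice on CTRL diet than in the other group.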

How the results depend on the processing

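The genes called were largely kept under other processing: of the 1116, 1108 stayed called with the deposited log2 values, 1071 with the processed signal scaled to the 75th percentile, 957 with normexp, 1006 without array weights, 1095 with the slide as a block and 951 with the median over probes. The processed signal gave more calls, 1050 higher and 802 lower, against 600 and 516. An adjusted p alone gave 3269 and 3389, and a fold change over 2 gave 190 and 140. Within washing batch 1 alone, 780 genes were called, 634 of them among the 1116, with 331 lower, and within batch 2 1523, 1013 of them shared. Fits that left out 1 mouse gave 572 to 628 higher and 463 to 599 lower. Against 269 for the genotype interaction, 162 genes were called with no filter on dim probes, 107 within batch 1, 17 within batch 2, 164 without weights, 803 with p alone and 74 with a fold change over 2. Against 183 for the diet interaction, these counts were 111, 13, 16, 117, 484 and 60.

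The list median moved with the processed signal to 0.54 for fatty acid oxidation, 0.41 for ketogenesis, 0.27 for autophagy, -0.93 for the cell cycle and 0.16 for bile acids. With that signal the median over all genes was 0.04. The list median changed sign to 0.03 for ribosomal proteins, 0.05 for the proteasome, 0.04 for glycogen, 0.06 for oxidative phosphorylation, 0.07 for lipoproteins and 0.07 for NRF2 genes. With median scaling it moved to 0.54 for fatty acid oxidation, 0.42 for gluconeogenesis, 0.27 for amino acids and 0.17 for bile acids. The median over all genes was then 0.03. The list median changed sign to 0.02, 0.06, 0.05, 0.07, 0.09 and 0.08 for the same lists, in the same order. Within batch 1 it was 0.15 for autophagy and 0.11 for bile acids, and within batch 2 -0.01 for growth hormone, 0.12 for ATF4 targets and 0.48 for cytochromes P450. With the median over probes it was -1.57 for lipogenesis and 0.25 for the clock. Leaving out 1 mouse gave 0.17 to 0.34 for insulin signalling, 0.17 to 0.22 for autophagy and -0.07 to 0.01 for lipoproteins. *Fkbp5* had -0.19 in the separate fit of batch 1 alone, an estimate apart from the difference among mice of that batch given above. For these shifts, the cause was not tested. Nothing in the labels says that replicate numbers pair mice, and the mice were treated as unpaired. Deviations of same-numbered mice had correlations of -0.35 to 0.06, and 0 of 6 fasted mice matched their own number best. This cannot decide the question, since a pairing need not leave a trace in expression. With the replicate number as a block, 1116 genes were called, 1091 of them shared, and of the named calls those of *Cpt1a* and of the genotype interaction of *Sqle* were lost.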
